A study of Mus musculus with 22 samples.

Results

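Cardiac fibroblasts of mice that had swum for 10 days were compared with those of mice that had swum for 4 days, which asks how the fibroblast transcriptome moves as an exercise programme goes on. The comparison holds 6 of the 22 libraries of the series, taken by their swim label, with 3 libraries at each time. All mice were male wild-type C57BL/6 animals in postnatal weeks 10 to 14, and the labels name no transgene, drug or operation in the swim groups. Sedentary mice (n = 3) give the level without exercise. A second time course comes from TAC, read here as transverse aortic constriction, an operation that loads the left ventricle with pressure, with 3 libraries at 3 days and 3 at 10 days. The hours swum per day are not in the labels, nor whether a library came from 1 animal or several. The p-values therefore measure only the spread between these samples, which may be technical. Expression was given as FPKM, the number of sequenced fragments scaled by transcript length and by library size, for poly-A RNA made into stranded libraries.

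Fibroblasts build and remodel the collagen network of the heart and signal to muscle, vessels and immune cells through cytokines and growth factors. Much of what changed here concerned histones, the proteins that package DNA. Core histones H2A, H2B, H3 and H4 form the nucleosome, and linker histone H1 binds the DNA between nucleosomes. Most histone genes lie in clusters, lack introns and are transcribed mainly while DNA is replicated. Their messages usually end in a short hairpin, the stem-loop, in place of a poly-A tail, although cells that stop dividing make some polyadenylated histone messages. Variant histones such as H3.3, encoded by H3f3a and H3f3b, are made from ordinary polyadenylated messages throughout the life of a cell.

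The libraries differed in more than the days of swimming. From the FPKM step that 1 fragment is worth in genes with a single transcript, depth was estimated at 52193000 to 66064000 fragments in the 4 day libraries and 56720000 to 91505000 at 10 days. Total FPKM was 197221 to 205139 at 4 days, 147541 to 158695 at 10 days and 85128 to 119382 in sedentary fibroblasts. Fibroblast identity was checked first. Dcn, a proteoglycan of fibroblast matrix, was between 731 and 1091 FPKM in all 6 swim libraries, and Pdgfra, a receptor that marks fibroblasts, between 4.35 and 9.09 FPKM. Of the 15 lymphocyte markers in the table, 15 were under 1 FPKM in every swim library. Macrophage and monocyte markers were not low, with mean log2(FPKM + 1) of 4.96 to 5.31 at 4 days and 4.54 to 4.88 at 10 days. Resting fibroblast markers had 4.60 to 5.01 and 4.83 to 4.87. Haemoglobin messages took 7.7% to 24.6% of total FPKM at 4 days and 0.321% to 8.97% at 10 days. Replicate 2 of the 10 day group, with 8.97%, lay inside the range of the 4 day group. It also correlated more closely across genes with replicate 1 of the 4 day group (r = 0.98) than with replicate 1 of its own group (r = 0.97), a description of libraries that share most of their genes. Replicate 3 of the 4 day group was likewise closer to every 10 day library (r = 0.97 to 0.98) than to replicate 2 of its own group (r = 0.95). The lowest correlation was between replicate 2 of the 4 day and replicate 1 of the 10 day group (r = 0.89).

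Between 4 and 10 days of swimming the largest group of called genes was histone genes, which fell together. Of 9425 genes tested, 30 were called at an adjusted p under 0.05 (0.318%), 1 of them higher at 10 days (0.0106%) and 29 lower (0.308%), by limma with Benjamini-Hochberg adjustment over all genes. Among the 29 that fell, 24 were counted as histone genes by their names, the annotated pseudogene Hist3h2bb-ps included. The other 5 were Ifi27l2a, Ifi27l2b, Sdf2l1, Hs3st1 and Flywch2. The single rise was G530011O06Rik, a non-coding transcript. In each of the 30 genes the 3 libraries of one time lay beyond all 3 of the other, a pattern that 10.7% of all tested genes showed in the higher and 16.9% in the lower direction. An unadjusted p under 0.05 was reached by 2251 genes, 950 higher and 1301 lower, so the called genes are a small part of those below that level. The weakest called gene had an adjusted p of 0.048 and the next gene 0.0513, and 15 of the 36 lower genes with an adjusted p between 0.05 and 0.1 were histone genes as well.

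The number of calls depended on single libraries and on the samples fitted. It was 5, 23 and 6 without replicate 1, 2 and 3 of the 10 day group, and 8, 6 and 121 without replicate 1, 2 and 3 of the 4 day group. A fit of the 6 swim libraries alone called 0 genes by limma (1627 at an unadjusted p under 0.05). Scaling each library to the same total also called 0 by limma and moved the median log2 fold change of all genes from 0.0089 to 0.24. An unadjusted p under 0.05 was then reached by 3219 genes, 3102 of them higher at 10 days, so the prevailing direction depended on the scaling. All 30 genes kept the sign of their difference in both of those fits.

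**Figure D1:**
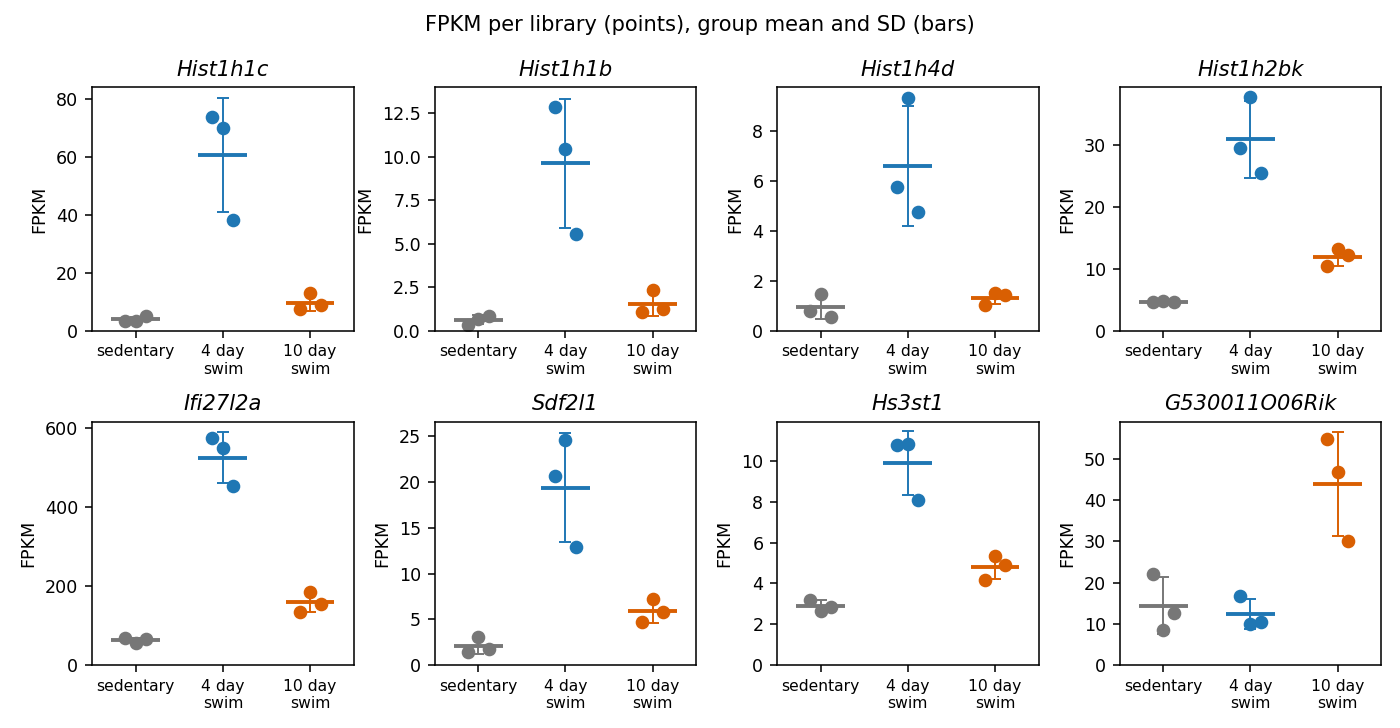
FPKM (vertical axes, each starting at 0) of 8 called genes in sedentary, 4 day swim and 10 day swim fibroblasts; points are libraries, horizontal bars are means and error bars are SD (n = 3). In the first 7 panels the 4 day libraries lie above every 10 day and sedentary library, and in the last panel the 10 day libraries lie above every other.

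The 2 largest falls among histone genes were those of the linker histone genes Hist1h1c and Hist1h1b. Hist1h1c, which encodes a linker histone found in most cell types, stood at 73.9, 70.1 and 38.2 FPKM in the 4 day libraries and at 7.33, 12.9 and 8.83 FPKM in the 10 day libraries. The groups did not overlap. On the log2(FPKM + 1) scale it fell by 2.51 (SE 0.36, adjusted p = 0.0037). In sedentary fibroblasts it was at 3.41, 3.43 and 5.03 FPKM, so that the 10 day libraries lay between the sedentary and the 4 day libraries. Hist1h1b, a second linker histone gene, was at 12.9, 10.4 and 5.55 FPKM at 4 days and at 1.07, 2.33 and 1.24 FPKM at 10 days. It fell by 2.02 (SE 0.28, adjusted p = 0.0037). All 6 linker histone genes of the clusters were called lower, and the 2 outside them, H1f0 and H1fx, were not; the 6 had a median log2 fold change of -1.27 (all genes tested, 0.0089). The other 4 clustered genes, Hist1h1a, Hist1h1d, Hist1h1e and the mainly testicular Hist1h1t, averaged between 0.881 and 2.77 FPKM at 4 days. Summed over the 6 genes, linker histone FPKM was 97.5, 89.4 and 49.2 at 4 days, 9.69, 17.3 and 11.4 at 10 days, and 4.3, 4.9 and 6.89 in sedentary fibroblasts. No 10 day library reached the lowest 4 day sum.

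The 250 bases before the RefSeq start of 3 called histone genes are shown, because the promoters of a histone class share short elements that the files allow to be counted. Capitals mark the H1 element called AC box (AAACACA), the octamer (ATTTGCAT) and the CCAAT box (CCAAT), searched on both strands with no overlap among the 3 motifs required or excluded. The sequences are from RefSeq, build GRCm38.p6, each written 5′ to 3′ on the strand of the gene.
Hist1h1c, chr13:23738557-23738806, plus strand: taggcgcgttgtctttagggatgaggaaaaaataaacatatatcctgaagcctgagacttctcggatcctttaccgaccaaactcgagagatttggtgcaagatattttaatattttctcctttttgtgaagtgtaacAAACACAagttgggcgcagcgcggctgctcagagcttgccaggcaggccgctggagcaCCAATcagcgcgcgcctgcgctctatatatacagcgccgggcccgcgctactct
Hist1h1b, chr13:21780626-21780875, minus strand: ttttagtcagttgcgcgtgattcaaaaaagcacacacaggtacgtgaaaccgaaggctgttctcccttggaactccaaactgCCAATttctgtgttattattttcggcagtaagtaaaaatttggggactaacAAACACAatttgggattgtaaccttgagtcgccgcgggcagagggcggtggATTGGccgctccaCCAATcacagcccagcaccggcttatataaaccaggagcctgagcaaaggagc
Hist1h2bk, chr13:22035571-22035820, plus strand: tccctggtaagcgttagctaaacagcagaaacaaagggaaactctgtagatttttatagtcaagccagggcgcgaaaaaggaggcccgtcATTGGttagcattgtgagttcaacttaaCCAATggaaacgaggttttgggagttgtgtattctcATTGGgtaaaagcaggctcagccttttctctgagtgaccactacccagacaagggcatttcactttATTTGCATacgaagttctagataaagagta

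Promoters of this length were matched for 7323 of the 9425 tested genes. The AC box was in 5 of 6 linker histone promoters, and in 3.89% of all matched promoters. The octamer, an element of H2B and H2A promoters, was in 5 of 13 H2B and 6 of 17 H2A promoters, and in 1.43% of all. A CCAAT box was in 6 of 6 H1, 17 of 17 H2A, 13 of 13 H2B, 8 of 10 H3 and 3 of 10 H4 promoters, and in 36.4% of all. These matches describe the letters in the window and say nothing of a factor's binding.

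Core histone genes that were called lower were 8 H4, 9 H2B and 1 H3 gene. Of 11 tested H4 genes 8 were called lower, with a class median log2 fold change of -1.54. Hist1h4d was at 5.78, 9.33 and 4.75 FPKM at 4 days and at 1.05, 1.5 and 1.42 FPKM at 10 days, and fell by 1.67 (SE 0.29, adjusted p = 0.014). Its 3 lowest libraries were the 10 day ones, close to the 0.798, 1.47 and 0.553 FPKM of sedentary fibroblasts. Hist1h4h was at 4.56, 6.15 and 3.85 FPKM against 0.8, 1.69 and 1.04 FPKM, and fell by 1.43 (SE 0.20, adjusted p = 0.0037). Hist1h4a, Hist1h4b, Hist1h4j and Hist1h4k, which encode the same protein, fell by 1.57, 1.54, 1.61 and 1.63 (adjusted p = 0.018, 0.018, 0.016 and 0.017). In each swim library these 4 genes had nearly the same FPKM, 7.16 to 8.13 in replicate 1 and 12.2 to 14 in replicate 2 of the 4 day group. Near-identical copies can share reads, so the values of single H4 and H2B genes are uncertain and their calls are not independent. The listed locus of Hist1h4m also holds Hist1h4n, and that of Hist1h1e holds Hist1h2be.

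Of 17 tested H2B genes, the pseudogene Hist3h2bb-ps included, 9 were called lower, with a median of -1.12. Hist1h2bk, whose promoter is printed above, was at 29.6, 37.7 and 25.5 FPKM at 4 days, at 10.4, 13.2 and 12.3 FPKM at 10 days and at 4.68, 4.83 and 4.63 FPKM in sedentary fibroblasts. The 3 groups did not overlap. Its log2 fold change from 4 to 10 days was -1.29 (SE 0.26, adjusted p = 0.039). Hist1h2bj and Hist1h2bf fell by 1.34 and 1.32 (SE 0.27 for each, adjusted p = 0.039 and 0.048). Of 12 tested H3 genes 1 was called, Hist2h3b, at 272, 358 and 231 FPKM at 4 days and 159, 129.8 and 149 FPKM at 10 days, a fall of 0.95 (SE 0.19, adjusted p = 0.039). All 12 H3 genes had lower values in every 10 day library than in any 4 day library, with a median of -0.87. Lower without overlap were 16.9% of all tested genes, and 34.6% of those with transcripts of up to 1516 bases. No H2A gene of 17 was called by limma, with adjusted p from 0.057 to 0.24, although 13 were lower without overlap. Their median was -0.88. Hist2h2aa2 was the 1 clustered histone gene of 63 tested with a positive value, and it was listed at 0 in all 3 of the 4 day libraries and at 0, 3.83 and 2.33 FPKM at 10 days. The groups thus overlapped, and Hist2h2aa1 is a near-identical neighbour whose reads it can share.

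**Figure D2:**
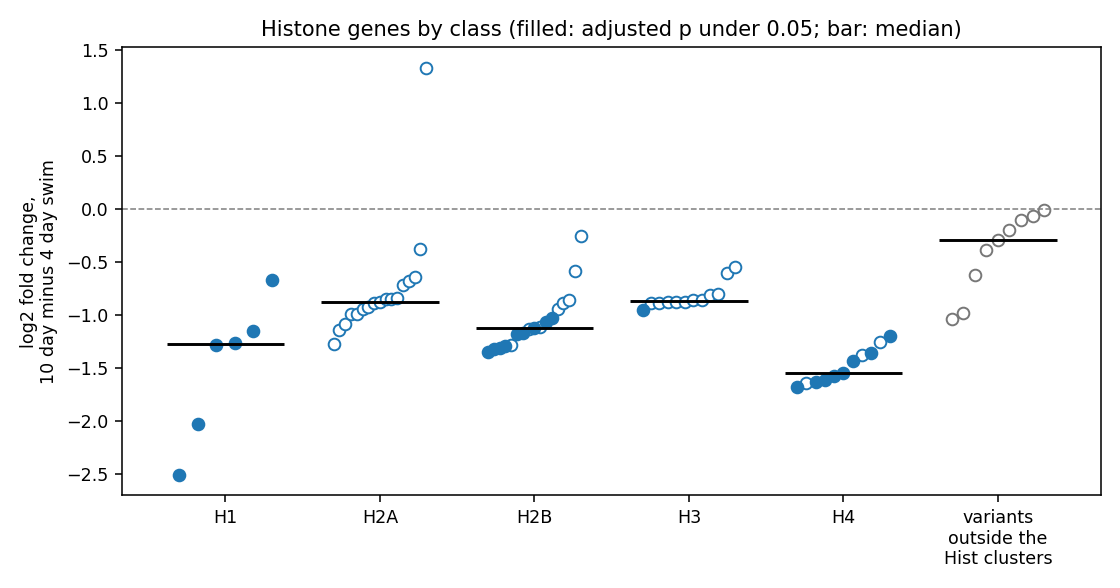
Log2 fold change on the log2(FPKM + 1) scale (vertical axis, 10 day minus 4 day swim) of each tested histone gene, grouped by histone class on the horizontal axis, with a bar at the class median; filled points passed an adjusted p of 0.05. Apart from Hist2h2aa2 at 1.34, every clustered gene lies below 0, and the 9 variants outside the clusters lie between -1.03 and -0.0038.

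The variant histones encoded outside the clusters gave no call. None of the 9 tested was called by limma, with log2 fold changes from -1.03 to -0.0038 and a median of -0.29. All 9 were thus below 0, and 3 were lower without overlap, as were 16.9% of all genes. H1f0, the linker histone of non-dividing cells, had the largest difference (-1.03, SE 0.25, adjusted p = 0.095), followed by H1fx (-0.98, SE 0.21, adjusted p = 0.057). H2afz was at -0.19 (SE 0.20), H3f3a at -0.10 (SE 0.20) and H3f3b at -0.62 (SE 0.21). With the length and GC trend removed H1f0 was at -0.94, H3f3b at -0.74, H1fx at -0.49 and H3f3a at -0.27. H2afj was then at -0.21, H2afv at -0.20, H2afz at 0.04, H2afy at 0.12 and H2afx at 0.32. The corrected medians of the clustered H3 and H2A genes were -0.38 and -0.37. Whether clustered and variant genes differ was not tested.

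The histone stem-loop was looked for by name in the GENCODE M21 transcripts, on the sense strand and at any position, as 2 arms of 6 bases that pair completely around a loop of 4 bases, with the bases that are constant among histone genes. It was in 46 tested genes. Of these 42 were histone genes of the clusters, 17 of them called lower, with a median log2 fold change of -1.06. Among all 63 tested histone genes of the clusters, with or without a match, 24 were called lower and the median was -0.99. Whether those with and without a match differ was not tested. The other 4 genes with a match, among them the variant histone gene H2afx, had a median of 0.52, and 0 were called by limma. The forms that occurred in 2 or more histone genes are printed, with the pairing arms in capitals and the loop in lower case, because every clustered H4 gene with a match had another arm than the clustered H1, H2A, H2B and H3 genes with one.
Form in 26 genes, 9 called lower, for example Hist1h1e: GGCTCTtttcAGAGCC
Form in 6 genes, 3 called lower, for example Hist1h4h: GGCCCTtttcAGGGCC
Form in 6 genes, 2 called lower, for example Hist1h1t: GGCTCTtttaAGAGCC
Form in 2 genes, 2 called lower, for example Hist1h4j: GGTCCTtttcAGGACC
A fall was called in genes with each of these 4 forms. The files measure messages caught by their poly-A tail, and the part that polyadenylation of histone messages has in these values was not tested.

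Genes of DNA replication and mitosis gave no call. Of 37 listed genes 24 were under 1 FPKM in every swim library, 23 passed the filter, which also counts other fibroblast groups, and 0 were called by limma (1 at an unadjusted p under 0.05). Their median log2 fold change was -0.15, with 16 negative and 7 positive values. In 8 of the 23 the 10 day libraries lay below all 4 day libraries (34.8%, against 16.9% of all genes), and in 0 they lay above. After correction for length and GC content they lay below in 2 (8.7%, against 12.8%) and above in 4 (17.4%, against 9.91%). Outside the naming rule, and chosen after their values were seen, Pcna, the sliding clamp of DNA polymerase, was at 24.3, 22.7 and 42.6 FPKM at 4 days and 51.4, 27.7 and 43.3 FPKM at 10 days. Mki67 and Top2a, markers of dividing cells, were between 0.024 and 0.0764 FPKM in all 6 swim libraries. Sedentary libraries had 0.101 to 0.751 FPKM of Mki67.

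The genes that fell were nearer to their sedentary level at 10 days than at 4 days. All 29 were called higher at 4 days than in sedentary fibroblasts, a comparison that called 64.5% of all genes, 38.2% higher and 26.3% lower. In all 29 the 10 day mean was still above the sedentary mean, and 14 of them were called higher at 10 days than in sedentary fibroblasts (30% of all genes were called higher, 13.6% lower and 43.6% either way). Their log2 differences from sedentary fibroblasts ran from 0.82 to 3.60 at 4 days and from 0.08 to 1.42 at 10 days. The 3 comparisons share their samples, so these counts are not independent of the calls. None of these values is corrected for length. Slopes of expression on length were -0.18 to -0.30 in sedentary, -0.54 to -0.66 in 10 day and -0.67 to -0.93 in 4 day libraries. Total FPKM also lay between the other 2 groups at 10 days. The part of either in the order of the called genes was not tested.

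Among the genes that are not histones, 2 neighbours on chromosome 12 were the most abundant. Ifi27l2a (103442167 to 103443680, mm10, minus strand, 4 exons in its largest annotated transcript) and Ifi27l2b (103450898 to 103457223, minus strand) belong to a family of small interferon-inducible membrane proteins. Ifi27l2a was at 574, 549 and 453 FPKM at 4 days, 136, 186 and 156 FPKM at 10 days and 68.2, 56.2 and 65.3 FPKM in sedentary fibroblasts. The 3 groups were fully separate. It fell by 1.72 (SE 0.28, adjusted p = 0.012) from 4 to 10 days, and Ifi27l2b by 1.66 (SE 0.26, adjusted p = 0.011). The 2 genes are alike enough in name and place that shared reads could not be told apart here.

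Sdf2l1, a partner of chaperones in the endoplasmic reticulum, was at 20.7, 24.6 and 12.8 FPKM at 4 days and 4.66, 7.18 and 5.75 FPKM at 10 days. It fell by 1.54 (SE 0.27, adjusted p = 0.016). It was the 1 called gene of 25 tested endoplasmic reticulum stress genes, whose median was 0.02. Hs3st1, an enzyme that sulfates heparan sulfate, was at 10.8, 10.8 and 8.09 FPKM at 4 days and 4.15, 5.34 and 4.91 FPKM at 10 days, with a fall of 0.90 (SE 0.17, adjusted p = 0.031). Flywch2 averaged 1.75 ± 0.41 FPKM (SD, n = 3) at 4 days and 0.839 ± 0.017 FPKM (SD, n = 3) at 10 days. G530011O06Rik rose by 1.73 (SE 0.34, adjusted p = 0.034), from 16.7, 10.1 and 10.6 FPKM to 54.8, 46.8 and 30.2 FPKM. Sedentary fibroblasts had 22.1, 8.58 and 12.7 FPKM, so its 10 day libraries stood above both other groups. Its listed locus on chromosome X (169685247 to 169990797) overlaps Mid1, which lies on the other strand, and reads of the 2 could not be told apart where counting ignored strand. Hs3st1, Flywch2 and G530011O06Rik fall outside the naming rule and are given because they complete the called genes.

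Transcript length went with the fold change. Across 9317 genes with a known length, the rank correlation of the log2 fold change with length was 0.54 and with GC content -0.36, as a description across genes of the same libraries. In 5 equal groups by length, genes of up to 1516 bases had a median log2 fold change of -0.32, and genes from 4675 bases had 0.22. Among the shortest 34.6% of genes were lower at 10 days with no overlap between libraries, and among the longest 2.84%. Of the genes that fell, 24 were in the shortest group, 4 in the next and 1 in the longest. That 1 was Hist1h1d, whose annotated transcript of 7425 bases is longer than its listed locus. The slope of log2(FPKM + 1) on length was -0.67, -0.93 and -0.74 per doubling in the 4 day libraries, -0.54, -0.66 and -0.58 at 10 days, and -0.18 to -0.30 in sedentary libraries. Replicate 2 of the 4 day group was the steepest. Called genes had a median transcript length of 658 bases, against 2809 for all tested genes.

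After each library was corrected for length and GC content, 9 genes were called (0.0966% of 9317), all lower and all among the 30. They were Hist1h1c, Hist1h1b, Hist1h1d, Hist1h1e, Hist1h4d, Hist1h4h, Hist1h4j, Ifi27l2b and Sdf2l1. Hist1h1c then differed by -2.26 and Hist1h1b by -1.61. The class medians were -1.33 for H1, -1.07 for H4, -0.71 for H2B, -0.38 for H3 and -0.37 for H2A, beside -1.27, -1.54, -1.12, -0.87 and -0.88 before. All 30 genes kept their sign. Each gene was given the length of its longest annotated transcript, coding where there was one, which can exceed its listed locus. That was so for Hist1h1d (7425 bases), Hist1h4d (1138 bases), Hist1h4j (774 bases) and Hist1h1b (743 bases), which stayed called. It was also so for genes that did not, among them Hist1h2bh (1679 bases), Hist1h4a (539 bases) and Hist1h4b (397 bases). Hist1h1d moved from -1.15 to -1.48. Hist1h4k, at 312 bases and no longer than its locus, did not stay called either. The part of these lengths in the corrected calls was not tested. Leaving out single libraries in this corrected fit gave 0, 3 and 0 calls for the 10 day replicates and 0, 0 and 17 for the 4 day replicates.

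**Figure D3:**
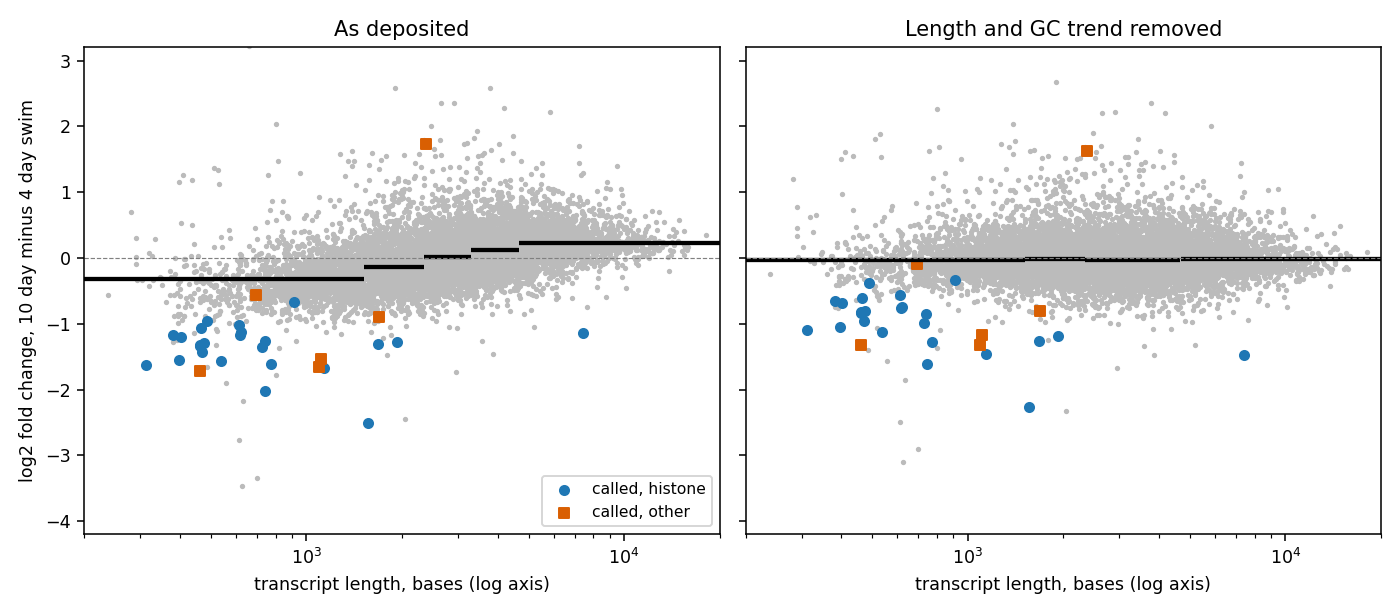
Log2 fold change (vertical axis, 10 day minus 4 day swim) against transcript length (horizontal log axis, bases) for values as deposited (left) and corrected for length and GC content (right). Horizontal bars are medians of 5 equal groups by length, which run from -0.32 to 0.22 on the left and lie between -0.034 and -0.015 on the right; coloured points are the genes called on the left.

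Genes of energy production and protein synthesis had mostly negative differences, though no member was called by limma. Of 61 tested nuclear genes of oxidative phosphorylation, 59 had a negative log2 fold change, with a median of -0.51 (all genes, 0.0089). In 62.3% of them the 10 day libraries lay below all 4 day libraries, against 16.9% of all genes. With the length and GC trend removed the median was -0.22 and that share 24.6%, against 12.8% of all genes. The 31 mitochondrial ribosomal protein genes had a median of -0.51, or -0.22 corrected, and the 55 cytosolic ribosomal protein genes -0.42, or -0.13 corrected. Lower without overlap were 51.6% of the mitochondrial and 40% of the cytosolic ribosomal protein genes, and 22.6% and 7.27% after correction. The corrected share of the cytosolic genes was below that of all genes. These lists hold short transcripts, with median lengths of 955, 995 and 906 bases. Scaling to the same total put their medians at -0.11, -0.13 and -0.02, where all genes stood at 0.24.

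Cytokine and interferon genes had mostly positive differences at 10 days, within a wide spread. Of 29 tested chemokines and cytokines 24 had positive values, with a median of 0.55 and 0 called (5 higher and 2 lower at an unadjusted p under 0.05). Il6, which drives the acute phase response, was at 36.7, 9.82 and 77.7 FPKM at 4 days and at 208, 42.6 and 145 FPKM at 10 days. Replicate 3 of the 4 day group lay above replicate 2 of the 10 day group, so the groups overlapped, and the difference of 1.79 (SE 0.84) had an adjusted p of 0.21. Ptx3, a secreted pattern recognition protein, was at 9.6, 1.45 and 44.5 FPKM against 120.4, 20.7 and 95.3 FPKM (2.58, SE 1.01, adjusted p = 0.17). Sedentary fibroblasts had 307, 304 and 95.8 FPKM of Ptx3, above or within the 10 day range. Lif, Tnfaip6 and Ch25h had the same order of libraries as Il6 within each swim group. The 32 interferon-stimulated genes had a median of 0.52 with 1 called, Ifi27l2a, which was lower. Without overlap 4 were higher and 4 lower (12.5% each, against 10.7% and 16.9% of all genes). At an unadjusted p under 0.05 by limma, 3 were higher and 3 lower. Their summed FPKM ran the other way with overlap, from 707 to 945 at 4 days and 479 to 930 at 10 days.

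Oxidant and metal response genes were not called either. Mt1 and Mt2, metallothioneins that bind zinc and copper, had no overlap between the times. Mt2 was at 277, 88.9 and 357 FPKM at 4 days and 598, 409 and 619.5 FPKM at 10 days (1.36, SE 0.42, adjusted p = 0.14). Mt1 was at 227, 133 and 254 FPKM and then 311, 295 and 358 FPKM (0.70, SE 0.24, adjusted p = 0.15). Hmox1, haem oxygenase, was at 79.1, 31 and 251 FPKM and then 292, 144 and 289 FPKM (1.42, SE 0.63, adjusted p = 0.20). Nqo1, a second target of the antioxidant factor NRF2, was between 0.813 and 1.15 FPKM in all 6 libraries. The 28 NRF2 response genes had a median of 0.05, with 7 higher and 3 lower at an unadjusted p under 0.05. Of 18 other antioxidant enzymes tested 16 had negative values, with a median of -0.38, or -0.18 corrected for length and GC content. Lower without overlap were 55.6% of them against 16.9% of all genes, or 33.3% against 12.8% corrected. Scaling to the same total put their median at -0.02, where all genes stood at 0.24.

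Matrix and activation genes of fibroblasts gave no call. Col1a1 was at 47.7, 23.6 and 27 FPKM at 4 days and 25.1, 24.3 and 18.9 FPKM at 10 days (-0.45, SE 0.33, adjusted p = 0.37), and Col3a1 gave -0.46 (SE 0.36). Postn, a matricellular protein of activated fibroblasts, was at 4.19, 1.27 and 2.08 FPKM and then 5.52, 4.22 and 5.08 FPKM (0.84, SE 0.36, adjusted p = 0.18). Its 3 libraries at 10 days lay above all 3 at 4 days. Acta2, the actin of smooth muscle and myofibroblasts, gave -0.06 (SE 0.39), Tcf21 -0.15 (SE 0.37) and Pdgfra 0.39 (SE 0.27). The 22 resting fibroblast markers had a median of 0.0085 and the 18 contractile genes one of 0.17. Rn45s, the ribosomal RNA precursor, ranged from 361 to 1435 FPKM at 4 days and 801 to 1814 FPKM at 10 days, and the nuclear RNA Malat1 from 1.21 to 2.66 FPKM over the 6 libraries.

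**Figure D4:**
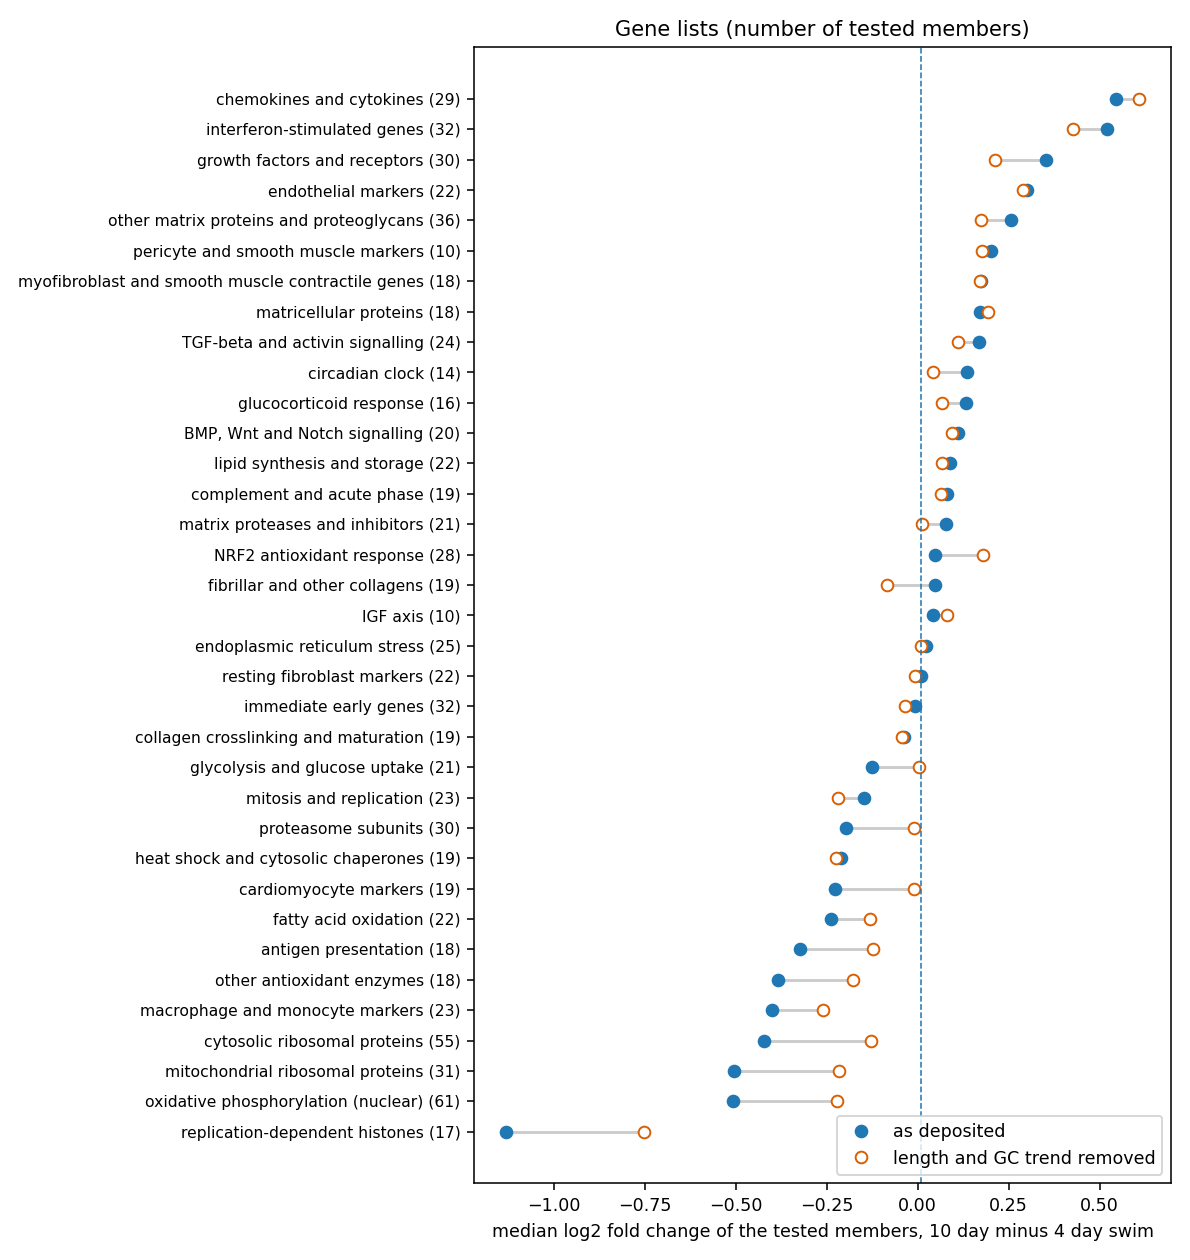
Median log2 fold change (horizontal axis, 10 day minus 4 day swim) of the tested members of each gene list with at least 10 such members (vertical axis, number of members in parentheses), as deposited (filled) and with the length and GC trend removed (open); the dashed line is the median of all tested genes. Histones stand lowest at -1.13 and chemokines and cytokines highest at 0.55.

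No marker of another cell type was called, but levels of some lists differed between the times. In bulk samples fewer cells of a type and less RNA per cell cannot be told apart. Of 22 endothelial markers 11 were higher at 10 days with no overlap (50%, against 10.7% of all genes), or 36.4% against 9.91% after correction for length, with 0 called by limma (6 higher and 1 lower at an unadjusted p under 0.05). Their mean log2(FPKM + 1) was 2.34 to 2.57 at 4 days, 2.58 to 3.08 at 10 days and 2.77 to 3.2 in sedentary fibroblasts. Their summed FPKM, which rests on the most abundant markers, ran the other way with overlap, from 409 to 667 at 4 days and 347 to 582 at 10 days. Pecam1, an adhesion molecule of endothelium named outside the rule, was at 3.84, 2.74 and 3.51 FPKM and then 6.78, 9.14 and 6.98 FPKM. Of 23 macrophage and monocyte markers 10 were lower at 10 days with no overlap (43.5%, against 16.9%), or 39.1% against 12.8% with the trend removed. Their median was -0.40, and -0.01 when libraries were scaled to the same total, where all genes stood at 0.24. C1qa, a complement subunit made by macrophages and likewise outside the rule, was at 387, 534 and 408 FPKM and then 224, 249 and 225 FPKM, with 53.5 to 73.5 FPKM in sedentary fibroblasts. Summed FPKM of the macrophage markers was 2168 to 2984 at 4 days, 1524 to 1938 at 10 days and 968 to 1336 in sedentary fibroblasts. The part of these cells in the histone and interferon gene differences was not tested. Cardiomyocyte markers had a median of -0.23, with 0 of 19 called and 0 without overlap. With libraries scaled to the same total it was 0.11, below the 0.24 of all genes. The 6 tested erythroid markers had a median of -3.23, with 0 called by limma and 6 at an unadjusted p under 0.05.

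The course after TAC was compared next; on its own it called 6.6% of all genes, 4.42% higher and 2.18% lower at 10 days. The difference between the change under swimming (10 minus 4 days) and the change under TAC (10 minus 3 days) was called for 581 of 9425 genes (6.16%), 175 positive (1.86%) and 406 negative (4.31%). With libraries scaled to the same total the split was 426 positive and 171 negative, and with the length and GC trend removed 323 positive and 352 negative, of which 423 genes were called the same way as before. The count depended on single libraries, from 194 without replicate 1 of the 10 day swim group to 1197 without replicate 3 of the 4 day swim group. It was 203 without replicate 3 and 1010 without replicate 2 of the 10 day swim group, and 266 without replicate 2 of the 4 day swim group. Leaving out TAC libraries gave 219 and 336 without replicates 1 and 2 at 3 days, and 300 without replicate 3 at 10 days.

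Histone genes made up part of the negative side. Of the 63 tested clustered histone genes 41 had a called negative difference between the courses, among them all 6 H1, all 11 H4 and 16 of 17 H2B genes but 0 of 12 H3 genes. Summed H1 FPKM was 9.15, 9.27 and 10.5 at 3 days and 18.6, 26.4 and 28.4 at 10 days of TAC. Summed H4 FPKM was 58.1 to 63 at 3 days and 47.2 to 93.4 at 10 days of TAC, beside 58.2 to 112 at 4 days and 14.2 to 26 at 10 days of swimming. In Hist1h1c the TAC change was 1.19 (SE 0.36, adjusted p = 0.056), and the difference of the courses -3.70 (SE 0.50, adjusted p = 8.0e-04). The swim change is part of this difference, so genes chosen for a fall under swimming are favoured to have a negative one. In the TAC course itself 1 of the 29 genes that fell under swimming was called, Hist1h1a (0.56, SE 0.16, adjusted p = 0.048).

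Among named genes the largest negative difference was that of an elastic fibre gene. Eln, elastin, was at 9.97, 7.2 and 10.9 FPKM at 4 days and 2.48, 3.37 and 2.33 FPKM at 10 days of swimming. After TAC it was at 11.8, 15.4 and 12.3 FPKM at 3 days and 78.7, 102 and 103 FPKM at 10 days. The swim change was -1.47 (SE 0.32, adjusted p = 0.060), the TAC change 2.75 (SE 0.32, adjusted p = 7.1e-05) and their difference -4.22 (SE 0.46, adjusted p = 2.0e-04). Mfap4, a protein of elastic microfibrils, rose by 2.33 (SE 0.25, adjusted p = 3.0e-05) under TAC and differed by -0.16 (SE 0.25) under swimming. Gas1, a surface protein linked to growth arrest, was at 57, 35.8 and 20.6 FPKM at 4 days and 8.23, 12.7 and 9.03 FPKM at 10 days of swimming. Its swim change was -1.73 (SE 0.43, adjusted p = 0.11), and the difference of the courses -3.22 (SE 0.61, adjusted p = 0.0074). Hbb-y, an embryonic globin, gave -2.71 (SE 0.72, adjusted p = 0.041), with haemoglobin messages as uneven as given above.

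On the positive side stood metallothioneins and cytokines. Mt1, Mt2, Ptx3, Tnfaip6 and Ch25h fell from 3 to 10 days of TAC, and the TAC changes of Lif (-2.65) and Il6 (-2.57) had adjusted p of 0.056 and 0.086. Mt2 changed by -3.52 (SE 0.42, adjusted p = 9.9e-05) from 3 to 10 days of TAC, from 721, 531 and 383 FPKM to 56, 40.4 and 40.8 FPKM. The difference of the courses was 4.88 (SE 0.59, adjusted p = 4.9e-04). Mt1 gave 2.78 (SE 0.34, adjusted p = 4.7e-04). Ptx3 had the largest estimate, 6.20, with the largest error among the named genes (SE 1.43, adjusted p = 0.024). Tnfaip6 (4.69, SE 0.86), Lif (4.38, SE 1.09), Il6 (4.36, SE 1.18) and Ch25h (4.22, SE 0.93) followed, with adjusted p of 0.0071, 0.032, 0.044 and 0.018. Of 29 chemokines and cytokines 9 had a called positive and 0 a called negative difference (1.86% and 4.31% of all genes).

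**Figure D5:**
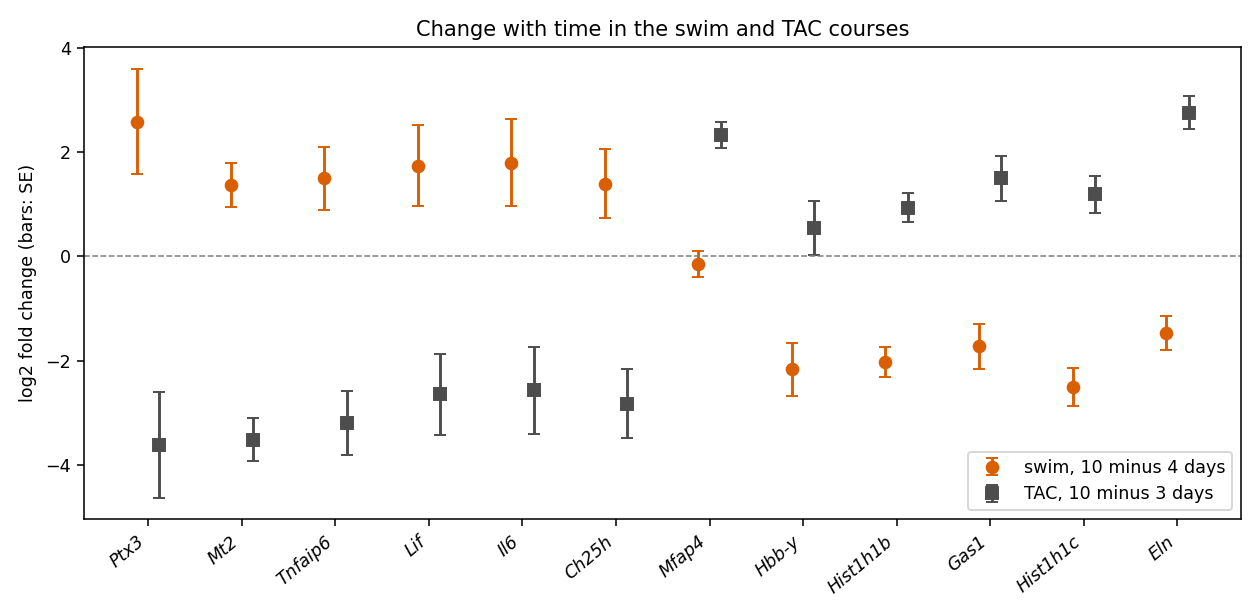
Log2 fold change with time (vertical axis; points are limma estimates, bars are SE) of 12 genes (horizontal axis) under swimming (circles, 10 minus 4 days) and TAC (squares, 10 minus 3 days). The first 6 genes lie above 0 under swimming and below 0 under TAC, and of the other 6 Eln goes from -1.47 under swimming to 2.75 under TAC.

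The authors' deposited table gives its own test of 10 against 4 days of swimming. It lists 695 of 12073 genes tested at a q under 0.05 (5.76%), 484 higher and 211 lower at 10 days. Of the 30 genes called here, 27 were among them in the same direction. Of the 614 listed genes that were tested here, 614 had the same sign here and 423 an unadjusted p under 0.05. Both tests rest on the same swim groups, so the shared signs are no independent support. In the authors' deposited table Hist1h1c has a log2 fold change of -2.70 (q = 5.2e-12), Ptx3 2.12 (q = 7.5e-05) and Gas1 -2.11 (q = 2.1e-07).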

How the data were processed

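The submitters' processing notes name Cufflinks 2.0.2 and build mm10. For aligner and annotation, nothing is given in the sources used here. Deposited were FPKM per library and the authors' comparison table with FPKM, fold changes, p-values and q-values. Another 44 columns, of confidence bounds, were not used. Lengths came from GENCODE M21 for 22775 of 23359 genes, and 27 symbols that had become dates were recovered from their locus.

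limma 3.58.1 (R 4.3.3, trend and robust) was run on log2(FPKM + 1) of 19 fibroblast libraries together. The 9425 genes tested reached 1 FPKM in 2 or more libraries, and calls needed p under 0.05 after Benjamini-Hochberg adjustment. The added 1 shrinks folds of low genes. For the correction, splines on length and GC content (4 degrees of freedom) were subtracted per library. The test was checked on simulated data. The sedentary status of 1 library was inferred from its wild-type label.

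Members, 43 gene lists and tests were chosen with earlier results of these data known. The naming rule took 12 fixed genes, the 12 largest rises and falls with a mean of 5 FPKM or more, the 8 largest also called after correction, up to 4 called members per list, and the 6 largest course differences of each sign. It left out predicted genes, pseudogenes and joined symbols.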

Additional observations from a re-analysis of the deposited data

Results flagged for a closer look

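In 23 named genes the change from 4 to 10 days of swimming differed from the change from 3 to 10 days of TAC, by limma's test of the difference itself with an adjusted p under 0.05 (581 of 9425 genes). Some of these genes were named for the size of this difference, and most others for a called fall under swimming, which is part of it. Their number therefore follows from the naming rule and is no result in itself. The values are swim change minus TAC change on the log2(FPKM + 1) scale.

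Positive differences were those of Ptx3 (6.20), Mt2 (4.88), Tnfaip6 (4.69), Lif (4.38), Il6 (4.36), Ch25h (4.22) and Mt1 (2.78). Among genes of matrix, growth arrest and globin, Eln gave -4.22, Gas1 -3.22, Hbb-y -2.71 and Mfap4 -2.49. The linker histone genes Hist1h1c and Hist1h1b gave -3.70 and -2.95. For H2B genes the values were -2.20 (Hist1h2bf) and -1.93 (Hist1h2bj). H4 genes lay close together, at -1.85 (Hist1h4k), -1.84 (Hist1h4d), -1.84 (Hist1h4j), -1.82 (Hist1h4h), -1.79 (Hist1h4b) and -1.75 (Hist1h4a). The interferon-inducible pair Ifi27l2a and Ifi27l2b gave -2.07 and -1.99.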

How the results depend on the processing

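The count of called genes (30) was 8 with 0.1 and 55 with 5 added before the logarithm, 18 without a filter, 18 after quantile normalization, 9 after correction for length and GC content, 0 with libraries scaled to the same sum and 0 with only the 6 swim libraries fitted. Scaling to the same sum without haemoglobin genes, added after seeing the data, gave 1. Leaving out 1 library gave 5 to 121. The count of called list members (9) was 4, 15, 4, 14 (filter at FPKM 5), 5, 0 and 0 in the same kinds of fit, 1 without haemoglobin genes and 3 to 19 with 1 library left out. The 581 course differences were 350 with a filter at FPKM 5, and 194 to 1197 with 1 library left out. The rank correlation with length (0.54) was 0.0090 after correction.

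Corrected fits added after seeing the data gave, for the 6 swim libraries alone, 6 calls, 2 list members and a rank correlation of 0.0108. Without replicates 1, 2 and 3 of the 10 day group they gave 0, 3 and 0 calls, 0, 2 and 0 list members and correlations of 0.0048, 0.0097 and 0.0097. Without replicates 1, 2 and 3 of the 4 day group they gave 0, 0 and 17 calls, correlations of 0.0150, -0.0149 and 0.0139, and 0 and 0 list members for the first 2. The causes were not tested.

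In 6 named genes the sign changed. Acta2 (-0.06) was 0.29 with the same sum and 0.13 without haemoglobin genes, ran from -0.24 to 0.082 with 1 library left out, and was 0.041, 0.11, 0.14 and 0.014 in corrected fits with 1 library left out. Tcf21 (-0.15) was 0.25, 0.063 and, after quantile normalization, 0.019, ran from -0.26 to 0.028 with 1 library left out, and was 0.047 and 0.12 corrected. Mfap4 (-0.16) was 0.24 and 0.056, and 0.036, 0.050, 0.020, 0.13, 0.12 and 0.17 in corrected fits. Nqo1 (0.03) was -0.0078 with the same median and -0.032 after quantile normalization, and ran from -0.037 to 0.086. Rn45s (0.56) ran from -0.0044 to 0.99. Malat1 (0.36) was -0.026, -0.21 and -0.044 in corrected fits. No paired analysis was possible because the labels give the swim groups no shared replicate numbers. Depth is known only as an estimate, so no counting intervals are given.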
